A study of Homo sapiens with 9 samples.

Results

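The transcriptome of HCT116 cells after transfection with LINC00857-siRNA2 was compared with that of cells given a negative control siRNA (NC). LINC00857 is a long intergenic non-coding RNA of chromosome 10, and HCT116 is an established human colorectal carcinoma line with an epithelial phenotype. The comparison takes the 6 libraries labelled NC 1 to 3 and siRNA2 1 to 3 from a series of 9, whose other 3 libraries received LINC00857-siRNA1. All cells were grown in McCoy's 5A medium with serum and transfected with Lipofectamine RNAiMAX, so NC cells carried a transfected duplex too. A single cell line was used, no source used here gives the time from transfection to harvest, and separate cultures are stated for no group. The p-values below therefore rest on the spread among libraries that may be technical replicates. Of the 35817 genes in the count table, 19890 had enough counts in these 6 libraries to be tested.

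A small interfering RNA is a short duplex of which the guide strand is loaded into an Argonaute protein and directs cleavage of a fully complementary transcript. The same guide can also lower other messenger RNAs that pair only with its seed, bases 2 to 8 from its 5′ end, in the way a microRNA does, and such sites act mostly in the 3′ UTR. Long non-coding RNAs have no protein product, so their loss is read from other transcripts.

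The target of siRNA2 lies in LINC00857 on the plus strand, at chr10:80218526-80218544 of GRCh38, in exon 2 of 2 of both annotated transcripts (gene 80207710 to 80219657). It is shown because the capital letters, which pair with the guide seed, are the stretch searched for in other transcripts further on.
LINC00857 target: ggtattagtggGTGAATAt

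The targeted transcript was measured at 511, 418 and 499 normalized counts in NC 1 to 3 and at 176, 176 and 239 in siRNA2 1 to 3 (raw counts scaled for library size, as for every count below unless called raw). The groups did not overlap, and the targeted gene was low in the libraries labelled siRNA2. LINC00857 fell by 1.27 on the log2 scale (SE 0.18, adjusted p = 0.000215, edgeR quasi-likelihood test over all genes), a ratio of 0.414 to NC. With 3 libraries against 3, an exact permutation test of a single gene cannot give a two-sided p below 0.1. The level reached with siRNA1 was close by, and the direct difference between the siRNAs was -0.08 (adjusted p = 0.783, edgeR, all 9 libraries).

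Library totals ran from 51411860 to 57156058 counts, and transcripts of the mitochondrial genome made up 10.0 to 10.2% of counts in NC and 9.53 to 9.79% in siRNA2. No replicate was a copy of another. The epithelial markers fixed for this line were all present (8 of 8), with KRT8, KRT18 and KRT19 the highest of them, and their summed raw counts were 206197 to 221716 in NC and 205624 to 235467 in siRNA2. Of 12 immune markers found, CD3G was at 0 in every library and PTPRC averaged 1 count, and the summed raw count was 585 to 673 in NC and 495 to 917 in siRNA2. The 11 fibroblast and endothelial markers summed to 1919 to 2404 in NC and 1421 to 1781 in siRNA2, most of it COL1A1. In bulk RNA, a change in the share of cells that express a gene and a change per cell cannot be told apart.

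How many genes moved, and how abundant they were, was asked next. With siRNA2, 2972 genes were higher (14.9% of those tested) and 3074 were lower (15.5%), 6046 in all (30.4%), at an adjusted p below 0.05 in edgeR's quasi-likelihood test. Most of these changes were small. Of the genes called, 3986 (65.9%) differed by less than 0.5 on the log2 scale, the median was 0.36 for those higher and -0.40 for those lower, and the median of all tested genes was 0.00. Over 2-fold, 276 genes were higher (1.39%) and 342 were lower (1.72%). Over 4-fold, 65 were higher and 81 lower. The libraries of the groups overlapped for 70 of the genes called. Separate groups were common without a call too. Over all 19890 tested genes, the siRNA2 libraries all lay above NC for 4258 and all below for 4358.

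The share of genes called rose with abundance while the size of the change fell. Among 5988 genes with a mean of 10 to 100 normalized counts, 147 were higher and 152 lower (4.99% together), and those called had a median absolute log2 fold change of 1.62. These counts hung on single libraries, with 83 to 93 higher without any 1 siRNA2 library and 81 to 99 lower without any 1 NC library. Among 7434 genes with 1000 to 10000 counts, 1868 were higher and 1901 lower (50.7%), with a median of 0.32. Among the 949 genes with 10000 counts or more, 366 were higher (38.6%) and 273 lower (28.8%), with a median of 0.21. The median standard error of the log2 fold change went from 0.59 in the class of 10 to 100 to 0.03 in the highest class, so at low counts only large differences could be detected. The most abundant class was the one in which rises outnumbered falls, 12 to 2 over 2-fold. For the gene lists below, a share at like abundance is therefore given beside the count. It is the share of all tested genes called in that direction, averaged over these abundance classes in the proportions of the list's tested members, and it is a description with no test.

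**Figure D1:**
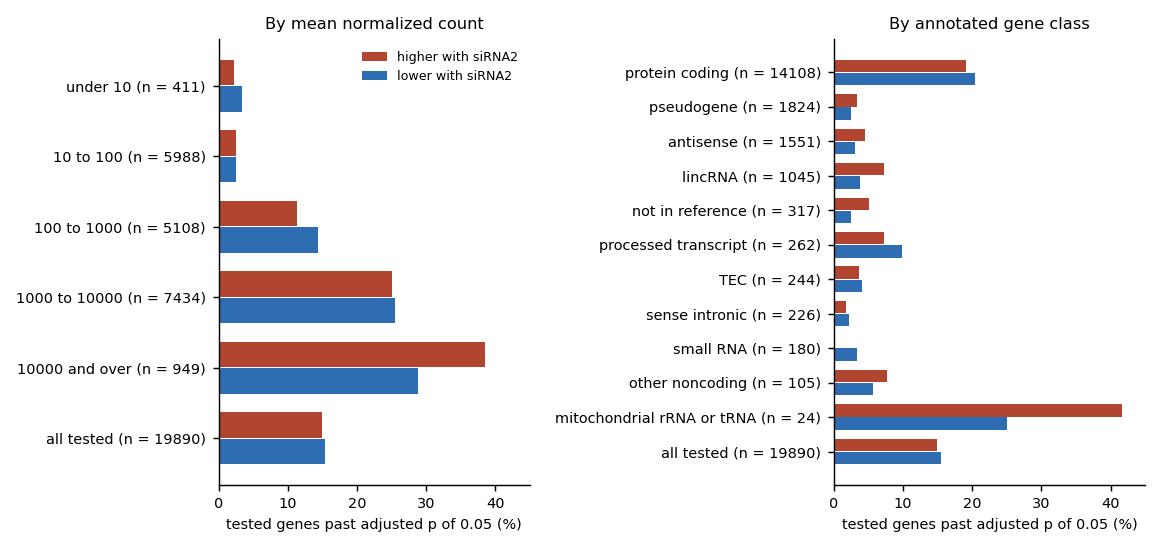
Share of tested genes that were higher (red) or lower (blue) with siRNA2 at an adjusted p below 0.05, by mean normalized count on the left and by annotated gene class on the right, with the number tested in brackets. The bars lengthen with abundance, up to 38.6% higher and 28.8% lower, and protein-coding genes have longer bars than every non-coding class except mitochondrial rRNA and tRNA.

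Protein-coding genes held most of the calls, with 2699 higher and 2874 lower of 14108. LincRNAs (76 higher, 40 lower of 1045), antisense transcripts (70 and 47 of 1551) and pseudogenes (61 and 46 of 1824) had more rises than falls. That order held without any 1 library in all 3 classes except for pseudogenes without siRNA2 2, though the counts went down, to 48 higher for lincRNAs without siRNA2 3, to 25 lower for antisense transcripts without NC 1 or NC 2 and to 37 higher for pseudogenes without NC 1. The classes also differed in abundance, with a median count of 1419 for protein-coding genes and 34.0 for lincRNAs. Within 100 to 1000 counts, 10.9% of the 1291 non-coding genes were higher and 6.43% lower, against 11.6% and 17.1% of the 3817 protein-coding genes. Within 10 to 100 counts, where 3964 of the non-coding genes lay, 1.82% were higher and 1.51% lower, against 3.71% and 4.55% of 2024 protein-coding genes. Protein-coding genes thus had the larger share of falls in both classes, while the shares of rises were close only in the class of 100 to 1000. Small RNA genes, which include microRNA and 7SK or signal recognition particle copies, had 0 higher and 6 lower of 180, and 4 lower without NC 2, NC 3, siRNA2 1 or siRNA2 3.

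By chromosome, 249 of 1331 tested genes of chromosome 19 were higher and 144 lower (18.7% and 10.8%). Over all tested genes the shares were 14.9% and 15.5%. Chromosome 19 was not alone in this. Rises also outnumbered falls on chromosome 20 (18.26% and 13.18%), chromosome 22 (15.12% and 9.83%) and chromosome 16. They did so by less on chromosomes 5 and 13, and most other chromosomes had more falls than rises. Numbered zinc finger genes of chromosome 19 gave 46 higher and 7 lower of 169, while its other genes gave 203 and 137 of 1162. Numbered zinc finger genes elsewhere gave 60 higher and 19 lower of 225, a share of rises of 26.7% against 27.2% on chromosome 19 and a share of falls of 8.44% against 4.14%, a difference that was not tested. By 3′ UTR length, the falls went from 17.0% of genes in the shortest of 4 equal length classes (up to 574 bases) to 29.4% in the longest (2724 bases and over), and the rises stayed between 19.4 and 22.9%.

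Whether genes that fell carry the seed site was then examined in 12497 protein-coding genes with an annotated 3′ UTR and a mean of at least 50 counts. The motif was GTGAATA, read on the transcript strand only in the longest annotated 3′ UTR (GENCODE v29), and 12.8% of these UTRs held it. Of the 10897 genes without it, 22.6% were higher, 19.1% were lower and the median log2 fold change was 0.02. Of the 1340 genes with 1 site, 12.4% were higher and 44.1% lower, with a median of -0.18. Of the 260 genes with 2 sites or more, 8.46% were higher and 55.0% lower, with a median of -0.24. The motif was thus held by 26.1% of the genes that fell (734 of 2813), 7.10% of those that rose (188 of 2649) and 9.64% of those not called.

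In each of the 4 classes of UTR length, genes with 1 site were more often lower, and less often higher, than genes without. In the shortest class, 56.3% of 80 genes with 1 site were lower, against 15.9% of those without. In the longest class, 42.1% of 705 genes with 1 site and 55.0% of 211 with 2 or more were lower, against 22.8% without. Sites followed by an A were lower in 49.4% of genes, and those followed by T, or by C or G, in 43.1% and 44.3%. A match to only bases 2 to 7 followed by an A gave 29.3%, and the same 6 bases without it gave 20.9%. Pairing past the seed did not go with a steady change in this share, which was 47.1% with 0 further paired bases, 39.7% with 1, 33.3% with 2 and 52.4% with 3 or more, the last of only 21 genes.

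The same genes gave no such order with siRNA1, whose comparison shares the NC libraries with this one. The siRNA1 medians were 0.00, -0.01 and 0.02 for 0, 1 and 2 or more siRNA2 sites, and the direct medians of siRNA2 against siRNA1, which do not use NC, were 0.02, -0.14 and -0.27. With siRNA2, 21.2% of all 12497 genes were higher and 22.5% lower. Of genes with 1 site for the siRNA1 guide, 21.5% were higher and 28.2% lower, against 21.2% and 21.8% with 0. By UTR length that difference in falls went both ways, with 17.2% against 20.8% in the second class and 32.3% against 28.5% in the longest. Of genes with 1 site for the NC guide, 24.4% were higher and 25.2% lower, against 21.1% and 22.4% with 0. Genes with a site for the passenger strand of siRNA2 and none for its guide were 21.2% higher and 23.4% lower. A motif match is a description of the sequence, not evidence of binding, and for every single gene the part of the seed in its change was not tested.

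**Figure D2:**
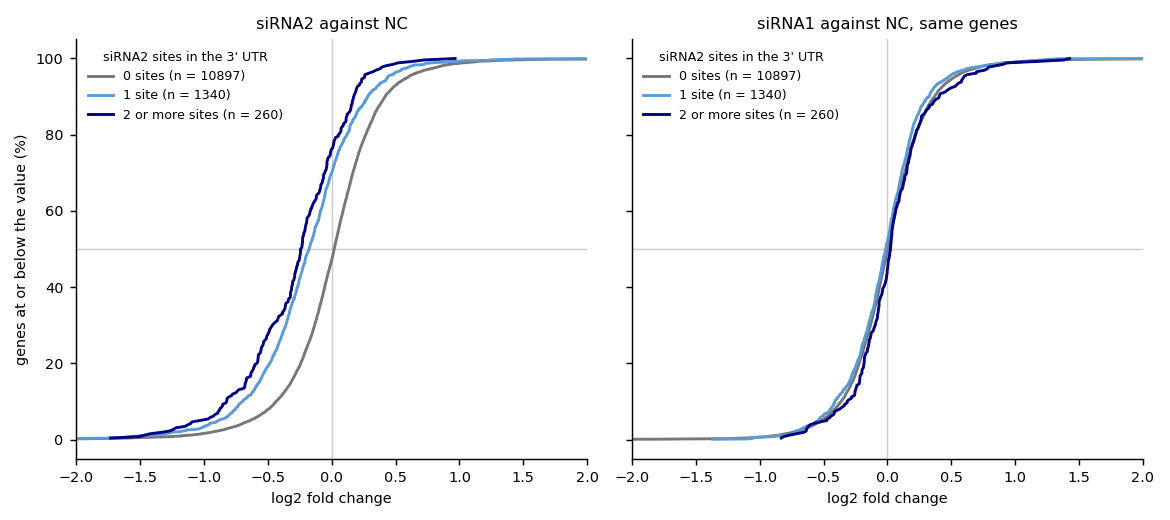
Cumulative share of 12497 protein-coding genes by log2 fold change against NC, split by the number of siRNA2 seed sites in the 3′ UTR (0, 1, or 2 and more). On the left, with siRNA2, the curves shift to lower values with more sites (medians 0.02, -0.18 and -0.24), and on the right, with siRNA1 in the same genes, they lie on each other.

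The 10 abundant genes below had the motif and were among the 15 lower genes of smallest adjusted p whose mean was 5000 counts or more. Each line gives the 19 bases whose capitals pair with the seed, at the same place as in the LINC00857 target, so the flanks can be compared with it.
LINC00857 target: ggtattagtggGTGAATAt
UHMK1: agtagttggttGTGAATAt
EIF4EBP2: agaccctgtttGTGAATAt
STARD7: ttatcaaatgtGTGAATAa
TFRC: ttcaagttaaaGTGAATAa
RBFOX2: gggacagaaaaGTGAATAa
USP5: aaatacacgatGTGAATAa
SLC4A2: tttttatttaaGTGAATAa
MCFD2: agtgaagtggaGTGAATAc
ZDHHC20: ggtggctgaaaGTGAATAa
NUP58: ttttgttgtgtGTGAATAt
The flanks differ from the target in all 10, and 8 to 13 of the 19 bases match it, a count that includes the motif itself. Where a UTR held several sites, the one that best matched the target is shown. Of the 15 most firmly higher genes of that abundance, 3 held the motif.

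UHMK1, a serine/threonine kinase that binds RNA-processing factors, had 25931, 25606 and 26293 normalized counts in NC and 9542, 9764 and 9845 in siRNA2. It fell by 1.42 on the log2 scale (SE 0.03, adjusted p = 7.11e-11, edgeR), the smallest adjusted p among falls of that abundance. EIF4EBP2, a repressor of cap-dependent translation that binds the initiation factor eIF4E, went from 7141, 7256 and 7884 counts to 2636, 2582 and 2842 (log2 -1.47). STARD7, a phosphatidylcholine transfer protein that serves mitochondria, went from 12868, 12477 and 13083 to 6440, 6196 and 6360 (log2 -1.02). These genes were named for their small adjusted p, so their separate groups follow from that choice. The other 7 fell by 0.64 to 0.89 on the log2 scale, among them RBFOX2, a splicing regulator (log2 -0.89), and USP5, which disassembles free ubiquitin chains (log2 -0.78). Against siRNA1 instead of NC, STARD7 was lower by a similar amount (direct log2 -0.97).

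The 5 abundant falls without the motif were TIMP2, LAMA5, COL12A1, SMURF2 and TSPAN14. TIMP2, an inhibitor of metalloproteinases, went from 15279, 15981 and 15977 counts to 7186, 7431 and 7536 (log2 -1.09). LAMA5 and COL12A1, a basement membrane laminin chain and a fibril-associated collagen, fell by 0.72 and 0.74 on the log2 scale.

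**Figure D3:**
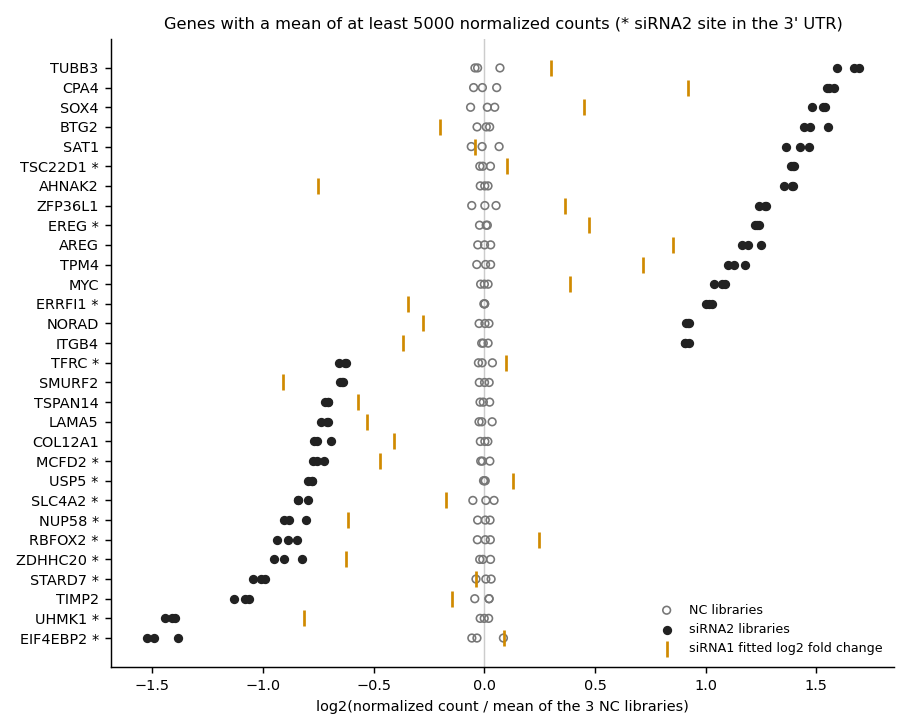
The 30 genes with the smallest adjusted p, 15 in each direction, among those with a mean of at least 5000 normalized counts. Points give each library's log2 ratio to the mean of the 3 NC libraries (open, NC; filled, siRNA2), the vertical tick gives the siRNA1 log2 fold change, and an asterisk marks a seed site, which 10 of the 15 falls and 3 of the 15 rises have.

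The abundant rises included growth factor genes, cytoskeletal genes and transcription factors. EREG, which encodes the EGFR ligand epiregulin, had 30961, 31726 and 31614 counts in NC and 73749, 73431 and 74204 in siRNA2 (log2 1.23, SE 0.02, adjusted p = 5.12e-11, edgeR). AREG, for the ligand amphiregulin, went from 6612, 6740 and 6474 to 15697, 15102 and 14800 (log2 1.20). Both ligand genes more than doubled, and ERRFI1, which encodes an inhibitor of EGFR, doubled as well, from 28647 to 28717 counts in NC to between 57472 and 58530 in siRNA2 (log2 1.02). EGFR itself averaged 13114 ± 432 (SD, n = 3) in NC and 13000 ± 508 in siRNA2 (log2 -0.01, adjusted p = 0.844, edgeR). Over the ERBB receptors and ligands, 5 of 23 tested genes were higher and 3 lower (18.9% and 18.2% at like abundance), and 4 and 4 with siRNA1. The higher count was 3 without NC 3, without siRNA2 1 or without siRNA2 3.

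TUBB3, a beta-tubulin best known from neurons, showed the largest rise of this abundance, from 5149 to 5568 counts in NC to between 16000 and 17138 (log2 1.65). CPA4, a secreted carboxypeptidase, rose by 1.56, SOX4, a high-mobility-group transcription factor, by 1.52, and TSC22D1, a transforming growth factor-beta-responsive leucine zipper protein, by 1.39, all on the log2 scale. AHNAK2, a giant scaffold protein, went from 14492 to 14847 counts to between 37573 and 38582 (log2 1.38). NORAD, a cytoplasmic lincRNA that sequesters Pumilio proteins, went from 16635, 16942 and 17156 to 32086, 32042 and 31806 (log2 0.92).

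Immediate early genes, which respond to growth factor signals within minutes to hours, were listed together with MYC. Of 38 tested, 21 were higher (55.3%), 8 of them over 2-fold, 2 were lower and 15 were not called. The median log2 fold change was 0.44 against 0.00 for all genes, of which 14.9% were higher, and 21.5% of genes were higher at like abundance. EGR1, a zinc finger factor of this class, had 2390, 2300 and 2200 counts in NC and 7487, 7322 and 7901 in siRNA2 (log2 1.72, adjusted p = 8.37e-10, edgeR). BTG2, an antiproliferative gene, went from 2759, 2680 and 2788 to 7465, 7595 and 8049 (log2 1.49). Both genes were named for their small adjusted p, so the wide gap between their NC and siRNA2 libraries follows from the choice. MYC, the growth-promoting transcription factor, went from 8878, 8776 and 8674 to 18466, 18626 and 17997 (log2 1.07), and the lower-abundance EGR3 from 84.2, 82.4 and 33.2 to 328, 267 and 272 (log2 2.12). KLF6 rose by 1.04 and NR4A2 by 1.35. The 2 that fell were FOSL2, an AP-1 subunit (log2 -0.45), and CCN2, a matricellular growth factor (log2 -0.69). With siRNA1, 17 of the list were higher and 5 lower, where 10.8% and 10.5% of 21130 tested genes were called higher and lower.

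Among the largest changes were several keratins. KRT6A, a keratin of hair follicle and wounded epidermis, went from 11.8, 6.03 and 6.84 normalized counts in NC to 121, 184 and 192 in siRNA2 (log2 4.31, SE 0.38, adjusted p = 7.23e-06, edgeR). KRT13, typical of wet stratified epithelium, went from 35.3, 14.1 and 40.0 to 387, 506 and 362 (log2 3.80), and KRT20, an intestinal keratin, from 5.88, 27.1 and 33.2 to 127, 144 and 129 (log2 2.59). These keratins were near background in NC and at low abundance in siRNA2. HRNR and FLG, which encode the cornified envelope proteins hornerin and filaggrin, rose by 3.37 and 2.41 on the log2 scale, and GRHL3, a transcription factor of epidermal barrier formation, rose from 42.2 to 56.8 counts to between 168 and 235 (log2 2.02).

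Not every keratin moved that way. KRT80, which is associated with desmosomes, had 974, 895 and 1012 counts in NC and 72.7, 103 and 93.0 in siRNA2 (log2 -3.42, SE 0.16, adjusted p = 4.36e-08, edgeR). KRT7, a keratin of simple ductal epithelium, went from 1596, 1577 and 1496 to 348, 227 and 228 (log2 -2.54), and its antisense transcript KRT7-AS from raw counts of 12, 26 and 68 to 0 in each siRNA2 library (at least 11.6-fold lower against a floor of 3 counts per library). KRT7-AS was picked after its values were seen, and it passed the count filter only through the NC libraries. Both KRT80 and KRT7 were lower in all 3 siRNA2 libraries, which the rule for the largest falls requires, and neither has the motif. The main keratins of the line were steadier. KRT8 and KRT18 differed by -0.04 and -0.03 (adjusted p = 0.306 and 0.418, edgeR) and KRT19 rose from 41369 to 43139 counts to between 62804 and 63887 (log2 0.58). Over the family, 10 of 22 tested keratins were higher, 7 of them over 2-fold, and 3 were lower, each over 2-fold, against 12.3% higher and 12% lower at like abundance. With siRNA1, 8 keratins were higher and 0 lower. KRT6A has near-identical copies, so reads may be shared among them.

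Some genes were at 0 in all NC libraries. ALDH1A1, a retinaldehyde dehydrogenase, had raw counts of 0, 0 and 0 in NC and 382, 166 and 184 in siRNA2, at least 81.4-fold higher against a floor of 3 counts per library. DCT, dopachrome tautomerase of the melanin pathway, had 0, 0 and 0 in NC and 85, 169 and 100 in siRNA2, at least 40.5-fold higher. IGFBP4, an insulin-like growth factor binding protein, was at least 27.7-fold and CXCL5, a neutrophil-attracting chemokine, at least 18.3-fold higher on the same floor. A gene at 0 in a whole group passed the count filter only through the other group, so its difference is partly built in. A total of 21 called genes had a group at 0, and the share over all tested genes was not computed. The floor covers counting error only.

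Other large rises were SCG2, DHRS2 and ARRDC4. SCG2, secretogranin II of neuroendocrine secretory granules, went from 540, 662 and 598 counts to 4192, 3965 and 4019 (log2 2.76, SE 0.08, adjusted p = 1.04e-09, edgeR). DHRS2, a short-chain dehydrogenase, went from 264, 202 and 258 to 1317, 1356 and 1416 (log2 2.50). ARRDC4, an arrestin-domain protein induced through the glucose-sensing factor MondoA, went from 297, 238 and 316 to 1673, 1418 and 1519 (log2 2.44). These genes were picked for large changes with separate groups, so the wide gap between their groups follows from the choice. SCG2 was an exception among granule genes, of which 3 of 18 were higher and 10 lower, the latter 6 without NC 1, against 18.3% and 18.8% at like abundance. With siRNA1, 3 of them were higher and 2 lower. VGF rose by 1.29 and SYT1, a calcium sensor of exocytosis, fell by 0.72 on the log2 scale.

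The largest falls with separate groups and stable calls included inhibitors of BMP and TGF-beta signalling. SMAD6 had 614, 684 and 716 counts in NC and 140, 123 and 124 in siRNA2 (log2 -2.38, SE 0.15, adjusted p = 5e-07, edgeR). SMAD7 went from 489, 524 and 530 to 124, 117 and 108 (log2 -2.14). Both are inhibitory SMADs, and in other cells both are induced by the pathway that they limit. SKIL, a further repressor of SMAD activity, fell by 1.01, the co-receptor gene TGFBR3 by 0.99 and FSTL1 by 1.04, while SMURF2, a ubiquitin ligase that removes TGF-beta receptors, fell by 0.65. Of the ID genes, which BMP signals induce, ID1 went from 5199 to 5763 counts to between 8788 and 9310 (log2 0.71), ID3 rose by 0.57 and ID2 fell by 0.63. Of 49 tested genes of TGF-beta and BMP signalling, 13 were higher and 17 lower (19.8% and 20.4% at like abundance), and 7 and 12 with siRNA1.

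Further large falls were RASGRP3, BMF, IL15, PLSCR4 and IFNE. RASGRP3, a Ras-activating exchange factor, went from 156 to 187 counts to between 15.1 and 36.8 (log2 -2.59), and BMF, a pro-apoptotic BH3-only protein, from 137, 198 and 115 to 24.2, 21.5 and 49.0 (log2 -2.24). IL15, a cytokine of natural killer and memory T cells, went from 174, 249 and 267 to 60.1, 34.5 and 68.0 (log2 -2.08). IFNE, an epithelial type I interferon, went from 244, 350 and 291 to 76.6, 56.0 and 82.0 (log2 -2.04). Separate groups were a condition for being named among the largest falls, so the gap in these genes follows from the choice.

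**Figure D4:**
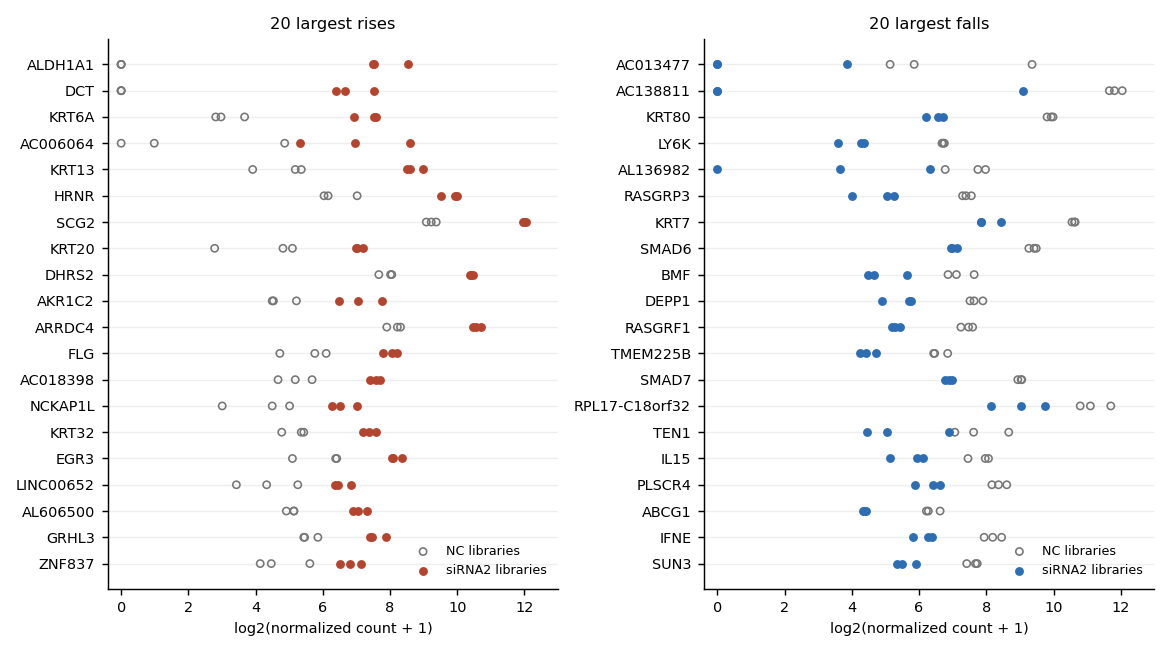
The 20 largest rises and 20 largest falls among called genes with separate groups and a mean of 50 counts or more, as log2(normalized count + 1) in each library (open, NC; filled, siRNA2). Most genes form tight groups, while AC006064, AC013477, AC138811, AL136982 and TEN1 spread widely between libraries of a group, and ALDH1A1 and DCT are at 0 in NC.

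The wide-spread genes in that plot are uncertain, because most overlap another gene and neither strand nor the counting of shared reads is given in these sources. Over all genes named here, 61 overlap another annotated gene, among them CCNA2 with EXOSC9, PSME2 with RNF31, TIMP2 with CEP295NL and DTX3L with PARP9, and their counts may hold reads of the partner. AC138811, which overlaps ARL6IP1 and RPS15A, had 3232, 4220 and 3595 counts in NC and 0, 540 and 0 in siRNA2, AC006064 lies antisense to GAPDH, and RPL17-C18orf32 is a read-through of RPL17 and C18orf32. The 5 protein-coding genes that the study screened out as its top falls (PIWIL4, TREX1, TEN1, TBC1D28 and RPL17-C18orf32) were each lower by over 2-fold. They were picked on these libraries, so their direction here is no independent evidence. With LINC00857 they made 6 lower genes, and 3 without NC 2 or NC 3. PIWIL4, a PIWI-clade Argonaute protein that binds piRNAs, had 41.1, 82.4 and 76.2 counts in NC and 9.69, 8.61 and 30.0 in siRNA2 (log2 -2.04, SE 0.56, adjusted p = 0.017, edgeR). With 1 library left out its log2 fold change lay between -2.84 and -1.74, and the call was lost without NC 2, NC 3, siRNA2 1 or siRNA2 2. Of the 5, the paper went on with PIWIL4 alone, after a database search. Apart from these counts, it reported by qPCR less PIWIL4 mRNA after LINC00857 knockdown.

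Of 62 tested genes of G2/M and mitosis, 37 were lower (59.7%), none over 2-fold, and 2 were higher, with a median of -0.19. At like abundance 25.4% of genes were lower and 26.4% higher. MKI67, the proliferation marker, went from 50230, 51081 and 49388 counts to 38953, 40500 and 40124 (log2 -0.33, adjusted p = 1.19e-06, edgeR). NEK2, a centrosomal kinase, fell by 0.74, TTK, a spindle checkpoint kinase, by 0.60 and ANLN, an actin-binding protein of the cleavage furrow, by 0.38. PLK1, the polo-like kinase of mitotic entry, went from 7876, 8058 and 8071 to 5089, 5106 and 5017 (log2 -0.66), and it holds a seed site. Sites were few in this list, and of the 56 members without one 32 were lower. CCNB1 differed by -0.11 (adjusted p = 0.0559, edgeR). The 2 higher members were CDC25A and KIF20B, and no library set with 1 library left out called both.

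Genes of G1/S and DNA replication gave 21 lower and 9 higher of 57, the latter 5 without NC 3 or siRNA2 3, against 25.6% and 26.3% at like abundance, and with siRNA1 5 were lower and 18 higher. With siRNA1, 15 of the mitotic list were higher and 5 lower, and in the direct comparison of the siRNAs 39 of its 62 genes were lower with siRNA2 and 2 higher, where 15.1% and 14.3% of 21130 genes were called lower and higher. CCNA2, the S and G2 phase cyclin, went from 6664, 6850 and 7167 to 4786, 4299 and 4686 (log2 -0.59) and has 2 seed sites.

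Of 39 tested targets of p53, which is wild-type in HCT116 cells, 22 were higher (56.4%) and 4 lower, with a median of 0.20, against 24.9% higher and 24.4% lower at like abundance. CDKN1A, the inhibitor of cyclin-dependent kinases p21, went from 25232, 24535 and 24446 counts to 38128, 37981 and 37392 (log2 0.61, adjusted p = 1.33e-08, edgeR). SFN, a 14-3-3 protein that holds cells in G2, rose by 0.53, the DNA repair gene XPC by 0.51, the stress gene SESN2 by 0.53 and TP53I3 by 0.88. Of the 4 lower members, ZMAT3 (log2 -0.93, 3 sites), TNFRSF10B (-0.16) and MDM2 (-0.09) hold the seed motif and PHLDA3 does not. Of all 6 tested members with the motif, 3 were lower and 2 higher, and of the 33 without it, 1 was lower and 20 higher. BTG2 belongs to this list and to the immediate early list. With siRNA1, 7 of the p53 list were higher and 17 lower, and 26 were higher and 5 lower with siRNA2 in the direct comparison.

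Replication-dependent histone genes had 8 higher and 0 lower of 30, a count that went down to 3 without NC 3 and to 3 to 6 over all 6 sets with 1 library left out. At like abundance 6.62% of genes were higher and 8.09% lower, and with siRNA1 2 histone genes were higher and 1 lower. H1-2, a linker histone, went from 311, 356 and 213 to 1025, 839 and 1072 (log2 1.74), and H2BC5 from 177, 241 and 183 to 631, 533 and 604 (log2 1.56). Histone genes share sequence, and most of their messages lack a poly(A) tail, so their counts depend on the library preparation. Numbered zinc finger genes, mostly transcriptional repressors, gave 106 higher and 26 lower of 394, with a median of 0.13, against 14.9% higher and 16.8% lower at like abundance. With siRNA1, 76 were higher and 21 lower, also with a median of 0.13. Of the 322 without a seed site, 94 were higher and 16 lower, and of the 72 with a site, 12 were higher and 10 lower. ZNF503 and ZNF664 rose by 0.77 and 0.51, and ZNF704, with 3 seed sites, fell by 1.32.

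Of 15 tested long non-coding RNAs in a list drawn up around nuclear transcripts, 8 were higher, 3 were lower and 4 were not called, with a median of 0.46. Their place in the cell was not measured, and not every member is known as retained in the nucleus. At like abundance 19.6% of genes of all classes were higher and 18.7% lower. MALAT1, an RNA of nuclear speckles, went from 11515, 11111 and 11213 counts to 20315, 19307 and 19379 (log2 0.80). NEAT1, the scaffold of paraspeckles, went from 24232, 23969 and 24320 to 39354, 40346 and 39626 (log2 0.72), and TUG1 rose by 0.46. OIP5-AS1 and CYTOR fell by 0.70 and 0.66. With siRNA1, 0 of the 15 were higher and 3 lower. MIR31HG, the host transcript of miR-31, went from 686, 621 and 487 to 261, 251 and 133 (log2 -1.48), LINC02019 from 138, 129 and 172 to 47.5, 45.2 and 59.0 (log2 -1.53), and TMCC1-AS1 from 132, 87.5 and 101 to 304, 301 and 333 (log2 1.55).

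RN7SL1 and RN7SL2, copies of the RNA of the signal recognition particle that share reads, fell by 0.98 and 0.95. RNAs of the mitochondrial ribosome went apart: MT-RNR1, the small subunit RNA, fell from between 91313 and 99198 counts to between 59360 and 66567 (log2 -0.62), and MT-RNR2, the large subunit RNA, rose from between 445185 and 455360 to between 500154 and 510277 (log2 0.16). Of the 13 mitochondrially encoded protein genes, 7 were lower and 2 higher, with log2 fold changes from -0.12 to 0.11, against 28.8% lower and 38.6% higher at like abundance, and with siRNA1 8 were lower and 2 higher. The count lower was 4 without NC 2, siRNA2 1 or siRNA2 3, and the count higher 1 without NC 1, siRNA2 2 or siRNA2 3.

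Of 47 tested genes of tight junctions, desmosomes and adherens junctions, 21 were lower (44.7%), 6 were higher (3 without siRNA2 1) and 20 were not called, with a median of -0.24. At like abundance 22.9% of genes were lower and 23.5% higher. CDH1, which encodes E-cadherin, went from 2748, 2904 and 3020 counts to 1346, 1143 and 1362 (log2 -1.17, adjusted p = 8.42e-07, edgeR). CDH3, P-cadherin, fell by 0.56, the claudin CLDN4 by 0.52, the tight junction scaffold TJP1 by 0.30 and the epithelial adhesion molecule EPCAM by 0.37. Against this, PERP and DSP, a desmosomal membrane protein and the desmosomal plaque protein, rose by 0.66 and 0.26. With siRNA1 the list gave 14 higher and 8 lower, and in the direct comparison 22 were lower and 5 higher with siRNA2. Of mesenchymal state genes, 9 of 19 were higher and 3 lower (15.8% and 16.1% at like abundance) and 6 and 6 with siRNA1, while VIM, vimentin, averaged 706 ± 40.6 in NC and 705 ± 109 in siRNA2.

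Integrin and laminin genes went in both directions. ITGB4, the beta subunit of the hemidesmosome integrin, went from 27586 to 28145 counts to between 52199 and 52803 (log2 0.91), and ITGB1, the common beta subunit, from 37204 to 37922 to between 61590 and 63530 (log2 0.75). Those were the 2 integrins that rose, and 7 of 19 fell (16.2% at like abundance, and 2 rose and 8 fell with siRNA1), among them ITGB5 by 0.84 and ITGA6, the usual partner of ITGB4, by 0.62. LAMA3, a chain of laminin-332, went from 801, 713 and 787 to 254, 236 and 323 (log2 -1.50), LAMB3 of the same trimer fell by 0.53, and LAMC1 rose by 0.36. Hemidesmosome collagen COL17A1 went from 116 to 154 counts to between 369 and 508 (log2 1.74). THBS1, a matricellular glycoprotein, went from 2115, 2105 and 2213 to 836, 748 and 804 (log2 -1.43), whereas with siRNA1 it rose by 1.61. Over collagens, laminins and other matrix genes, 10 of 62 were higher and 18 lower (14.4% and 15% at like abundance), and 18 and 6 with siRNA1.

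In the actin group 19 of 68 were higher and 25 lower (30.5% and 26.2% at like abundance), and 17 and 21 with siRNA1. TPM4, a tropomyosin, rose by 1.14 and MSN, which links actin to the membrane, by 0.69, and CFL2, a cofilin with a seed site, went from 4996, 4760 and 5054 to 1652, 1645 and 1886 (log2 -1.51). Tubulins and kinesins gave 14 higher and 18 lower of 60 (20.4% and 20.4% at like abundance), and 7 and 8 with siRNA1, with TUBB3 and TUBA1A (log2 1.01, a gene with close copies) the rises over 2-fold.

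Of 53 genes of the interferon response, 20 were lower (37.7%), 3 were higher and 30 were not called, with a median of -0.24. At like abundance 16.3% of genes were lower, and with siRNA1 13 of the list were lower and 3 higher. PARP12, an interferon-induced ADP-ribosyltransferase, went from 1990, 2049 and 1988 counts to 885, 928 and 882 (log2 -1.16, adjusted p = 4.86e-07, edgeR). DTX3L, a ubiquitin ligase, fell by 1.03, the antiviral OAS3 by 0.60, the double-stranded RNA kinase gene EIF2AK2 by 0.56 and the transcription factor gene STAT2 by 0.55, none with a seed site, while TRIM14 fell by 0.96 and holds one. IFIT2, an interferon-induced protein, was among the 3 that rose, with 138, 194 and 173 in NC and 420, 465 and 470 in siRNA2 (log2 1.42). Short double-stranded RNA was transfected into NC cells too, so the comparison is between duplexes.

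Of 21 genes of MHC class I antigen presentation, 11 were lower and 4 higher (20.8% and 21.6% at like abundance), and none holds a seed site. With siRNA1, 5 were lower and 2 higher. The higher count was 2 without NC 1, NC 2, NC 3 or siRNA2 3. NLRC5, the transcriptional activator of class I genes, went from 701, 796 and 875 to 278, 436 and 403 (log2 -1.09), PSMB9, an immunoproteasome subunit, from 217, 163 and 154 to 65.9, 48.4 and 59.0 (log2 -1.62), and the peptide-loading factor TAPBP fell by 0.44. The proteasome activator genes PSME1 and PSME2 fell by 0.49 and 0.63, and B2M, the light chain, by 0.22. HLA-E, a non-classical class I gene, went from 5534, 5490 and 5294 to 7700, 8168 and 7538 (log2 0.52).

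Homeobox cluster genes had 13 of 31 lower and 1 higher, which was 8 lower without NC 3, and the higher one, HOXC9, was lost on leaving out any 1 library. At like abundance 14.2% of genes were lower, and with siRNA1 7 of the list were lower and 0 higher. HOXA10 went from 1399, 1532 and 1408 counts to 707, 891 and 711 (log2 -0.91), and HOXB4, with a seed site, fell by 0.78. Cytosolic heat shock chaperones gave 9 higher and 19 lower of 40, lysosomal genes 13 and 22 of 58, nuclear genes of the respiratory chain 9 and 22 of 83, polyamine genes 11 and 5 of 22 and S100 genes 5 and 2 of 12 (1 lower without NC 1 or siRNA2 2). At like abundance the shares higher and lower were 29.1% and 25.9% for the chaperones, 22.9% and 23.2% for the lysosomal genes, 25.2% and 25.0% for the respiratory chain, 25.7% and 22.6% for the polyamine genes and 23.2% and 21.7% for the S100 genes. With siRNA1 the counts higher and lower were 13 and 7 for the chaperones, 8 and 17 for the lysosomal genes, 4 and 17 for the respiratory chain, 7 and 2 for the polyamine genes and 1 and 6 for the S100 genes. S100A6, a calcium-binding protein, went from 18015 to 19390 counts to between 30320 and 33399 (log2 0.75). Some lower genes of these and other lists hold several sites, such as XIAP, an inhibitor of caspases (log2 -1.10, 3 sites), and DCP1A of the decapping complex (log2 -0.88, 2 sites), while CNOT6, a deadenylase subunit, holds 1 (log2 -1.18). Cytosolic ribosomal protein genes gave 16 higher and 19 lower of 84, an order that turned to 23 and 12 with upper quartile scaling and to 7 and 5 with all 9 libraries in the model. Leaving out NC 3 gave 7 higher and leaving out NC 1 gave 10 lower, so no direction is read from them. At like abundance 37.0% of genes were higher and 28.3% lower, and with siRNA1 2 were higher and 21 lower.

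**Figure D5:**
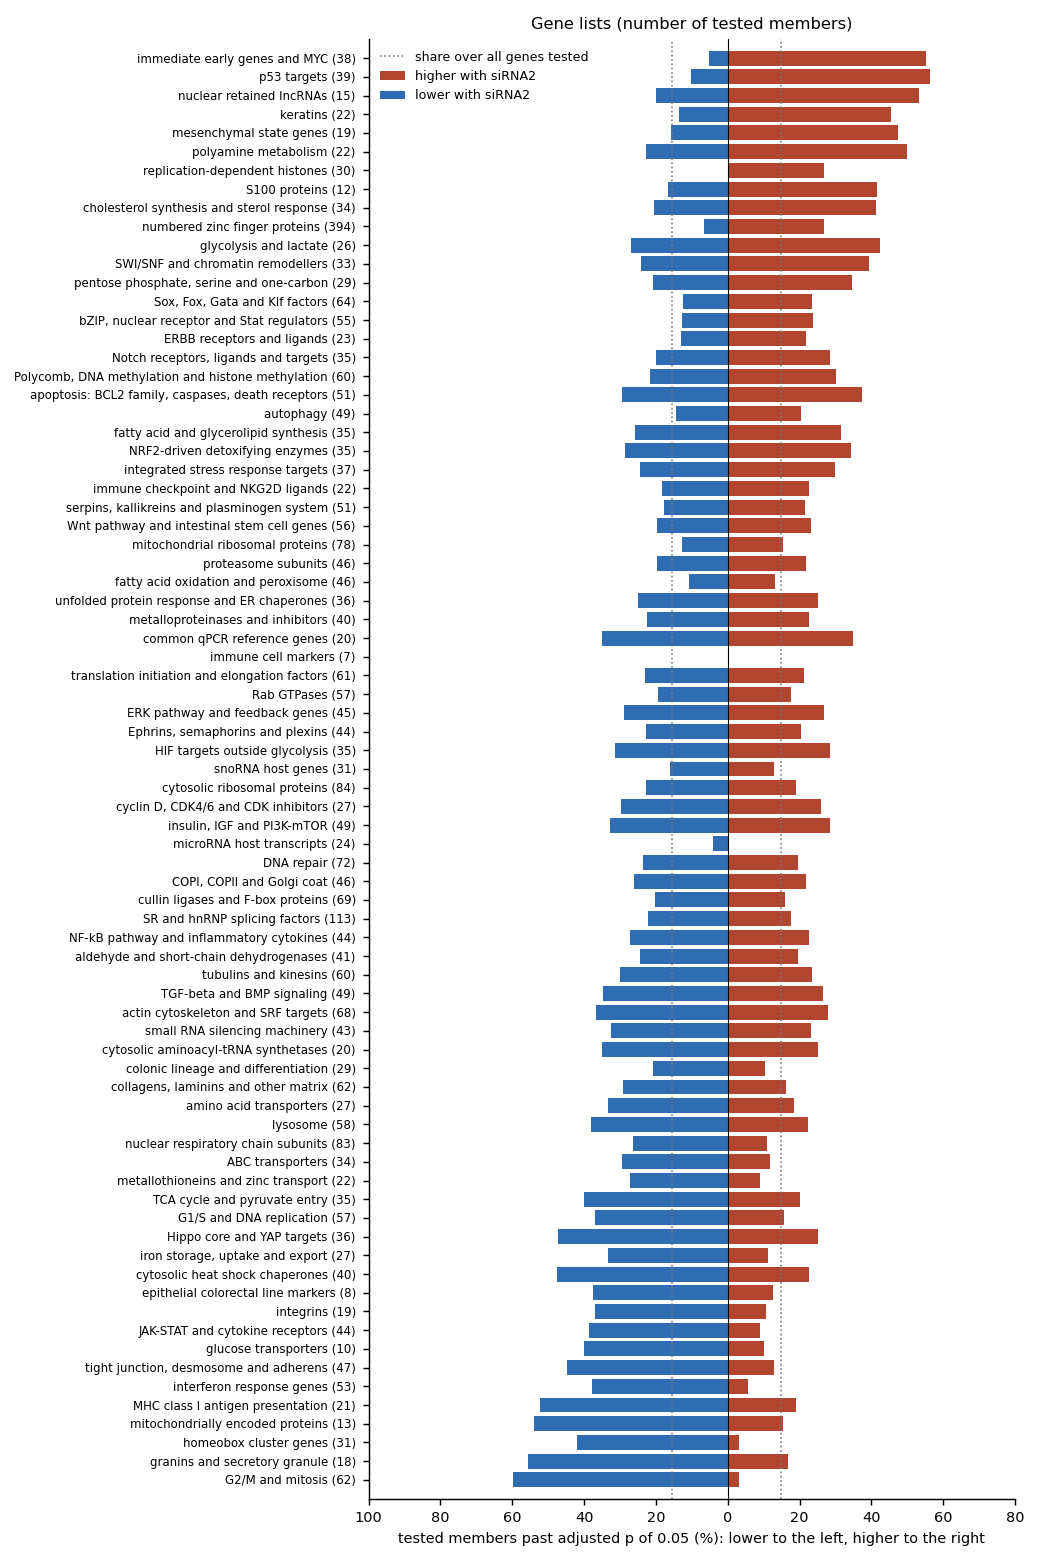
Share of the tested members of each gene list that were higher (to the right) or lower (to the left) with siRNA2 at an adjusted p below 0.05, with the number tested in brackets. Dotted lines mark the shares over all 19890 genes, 14.9% and 15.5%. The lists run from immediate early genes (21 of 38 higher) to mitotic genes (37 of 62 lower).

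Of the 72 genes named for the size of their change, their abundance or the study's interest, 36 were called in the same direction with siRNA1, 26 were not called and 10 were called in the opposite direction. Both comparisons share the NC libraries, so a chance shift of NC would move both alike. In the direct comparison, which does not use NC, 61 of the 72 differed between the siRNAs. Over all 21130 genes, 14.3% were higher and 15.1% lower with siRNA2 in that comparison. With siRNA1 against NC, 10.8% were higher and 10.5% lower. Most of the 72 were picked on their siRNA2 values, which enter the direct comparison too, so a high share is partly built in.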

How the data were processed

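RNA sequencing of HCT116 cells was performed by Lianchuan Biotechnology on total RNA extracted with Trizol. The authors deposited raw counts per gene, as whole numbers that were not normalized, for 35817 Ensembl genes in 9 libraries, and the submitters' notes name the build hg19. Not given in the sources used here were the aligner, the counting program, the annotation, the strand and whether reads or pairs were counted, so genes that overlap or share sequence are uncertain. Names, gene types, exon overlap and 3′ UTRs came from GENCODE v29 (GRCh38), joined by Ensembl gene ID (34766 found), and no position was carried between builds. Groups were taken from the library titles. Library totals were 51411860 to 57156058 counts.

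Genes were filtered with filterByExpr (minimum count 10, minimum total 15), scaled by TMM and tested with edgeR 4.0.16 in R 4.3.3 by the quasi-likelihood F test of 3 siRNA2 against 3 NC libraries, which leaves 4 residual degrees of freedom. Benjamini-Hochberg adjustment ran over all 19890 genes, with a threshold of 0.05. The study's methods used limma with an unadjusted p; edgeR was used because the values are counts, and limma 3.58.1 was an alternative. siRNA2 was compared with siRNA1 in a model of 3 groups over all 9 libraries. The scripts were tested on simulated data.

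Genes were named by rule: LINC00857 and PIWIL4, per direction the 20 largest changes among called genes with separate groups and a mean of at least 50 counts, the 15 with the smallest adjusted p and a mean of at least 5000, the 5 largest per non-coding class, and up to 8 members per direction of each gene list by adjusted p, with members given as not past the threshold. The members, gene lists and rules were chosen with earlier results of these data known. Lists were described by counts and medians, with no set test. Alternatives were DESeq2 1.42.0, limma-voom, 2 other scalings, 2 other filters, protein-coding genes only, all 9 libraries in the model, a replicate block, and each library left out.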

Additional observations from a re-analysis of the deposited data

Results flagged for a closer look

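Of the 154 genes named above, 24 were called in opposite directions against NC with the 2 siRNAs. Their direct difference between siRNA2 and siRNA1, which does not use the NC libraries, also passed the threshold (edgeR quasi-likelihood test over all 9 libraries). Most were named for their siRNA2 values, and the share of opposite calls over all genes was not computed. Their log2 fold changes with siRNA1 ranged in size from 0.10 (TFRC) to 1.61 (THBS1). Some were barely called, such as XIAP (0.18, adjusted p = 0.0455, edgeR) and BTG2 (-0.20, adjusted p = 0.0486, edgeR). The values below are the direct difference, siRNA2 minus siRNA1, on the log2 scale.

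Lower with siRNA2 and higher with siRNA1 were 15 genes. Of the keratins and matrix genes, KRT80 differed by -4.01, KRT7 by -3.13, THBS1 by -3.03, LAMA3 by -1.98 and LAMB3 by -0.65. Of the adhesion genes, CDH1 differed by -1.42, EPCAM by -0.84 and CDH3 by -0.73. The growth factor gene CCN2 differed by -1.58 and the proliferation marker MKI67 by -0.44. The other 5 hold a seed site of siRNA2, with ZNF704 at -1.79, XIAP at -1.28, RBFOX2 at -1.13, USP5 at -0.91 and TFRC at -0.73.

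Higher with siRNA2 and lower with siRNA1 were 9 genes. AHNAK2 differed by 2.14, BTG2 by 1.70, ID1 by 1.70, ERRFI1 by 1.37, ITGB4 by 1.29 and SFN by 0.83. The non-coding NORAD differed by 1.20, MT-RNR2 by 0.69 and TUG1 by 0.63.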

How the results depend on the processing

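The counts of genes higher (2972) and lower (3074), and of those over 2-fold, stayed within 1.5 times under every alternative run except for genes higher by over 2-fold, which were 276 over all genes and 178 among protein-coding genes only, as that alternative tests fewer genes. Leaving out each library in turn gave 2463 to 2590 higher, 2501 to 2665 lower, 224 to 290 higher and 294 to 368 lower by over 2-fold, and a LINC00857 log2 fold change of -1.43 to -1.19. Upper quartile scaling gave 3242 higher and 2773 lower. Samples with the same replicate number did not deviate together (correlations of -0.014, -0.026 and 0.031). Those with different numbers gave -0.059 to 0.076. No pairing by number was seen, but such values cannot exclude a shared culture or preparation. With a replicate block, 2878 genes were higher and 2955 lower, 251 and 306 of them over 2-fold, LINC00857 was at -1.28, and 59 named genes differed between the siRNAs, against 61. In the 2 siRNA groups alone 60 did. Of 16423 values of 1106 genes under the alternatives, none changed direction and 824 lost the call. All of these genes had been picked as called in the same libraries, so a change of direction was unlikely from the outset. At the depth of these libraries, genes under 100 counts were limited most: without a filter the class of 10 to 100 counts had 75 higher and 68 lower, against 147 and 152.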
